A study of Rattus norvegicus with 16 samples.

Results

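The MHC class I peptide loading route and the immunoproteasome were followed through 10 genes in sorted rat microglia, namely B2m, Tap1, Tap2, Tapbp, Psmb8, Psmb9, Psmb10, Psme1, Psme2 and Nlrc5. They were taken by symbol from the count matrix of the whole study, where they make up 10 of 21842 gene symbols, and each stood on a single Ensembl gene ID. Microglia, the resident macrophages of the brain, came from whole brains of male Wistar rats (Hsd/Cpb:WU) that had been exposed to 14 Gy of X-rays or to a sham procedure. After 6 weeks the rats were injected intraperitoneally with lipopolysaccharide (LPS), the bacterial endotoxin that innate immune cells sense through TLR4, or with the vehicle phosphate-buffered saline (PBS). The 4 groups were irradiated rats given LPS, irradiated rats given PBS, sham rats given LPS and sham rats given PBS, with 4 libraries each. All tissue was dissociated mechanically in the cold, and cells negative for DAPI with high CD11b and intermediate CD45 were collected by FACS. Individual animals are not identified in the labels, so the tests rest on the variation among libraries, which may be partly technical. The design asks how LPS and earlier irradiation, alone and combined, change gene expression in these cells.

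MHC class I molecules carry short peptides of cytosolic and nuclear proteins to the cell surface, where CD8+ T cells inspect them. The proteasome cuts the proteins. The immunoproteasome is a variant of it in which 3 inducible catalytic subunits take the places of the constitutive ones, and the PA28 activator cap opens its gate. The TAP transporter, a dimer of Tap1 and Tap2 products, moves peptides into the endoplasmic reticulum, tapasin holds the empty class I molecule at the transporter, and the heavy chain with its light chain leaves for the surface once a peptide is bound. Interferons, above all interferon gamma, are textbook inducers of these genes, acting through STAT proteins, interferon regulatory factors and the transactivator NLRC5. Resting microglia are known to express little of this machinery compared with activated ones.

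Total counts per library ranged from 14309458 to 62745496, and 13608 genes passed the filter on low counts. Levels are given as CPM, the counts of a gene as a share of its library scaled with TMM factors. A gene is said to have risen or fallen where edgeR's quasi-likelihood test gave a Benjamini-Hochberg adjusted p under 0.05 over all 13608 genes. The microglial identity of the libraries was checked with 11 markers found of 12 listed. One of the 11, Siglech, was at 0 in sham rats given LPS. Their summed level ranged from 15648 to 20102 CPM in irradiated rats given LPS, from 21828 to 27485 CPM in irradiated rats given PBS, from 37057 to 40982 CPM in sham rats given LPS and from 46989 to 50852 CPM in sham rats given PBS. By their medians, marker sums of T and NK cells, of monocytes and of border-associated macrophages ran in the reverse order. Those of border-associated macrophages summed to between 3125 and 4283 CPM in irradiated rats given LPS, 1265 and 1559 CPM in irradiated rats given PBS, 471 and 1036 CPM in sham rats given LPS and 381 and 442 CPM in sham rats given PBS, and 9 of the 10 rose with irradiation under either injection. Of 16 T and NK cell markers found, 12 rose with irradiation under LPS and 14 under PBS. Of all genes, 15.1% and 11.5% did. In these bulk samples, fewer cells of a type and less RNA per cell cannot be told apart.

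**Figure D1:**
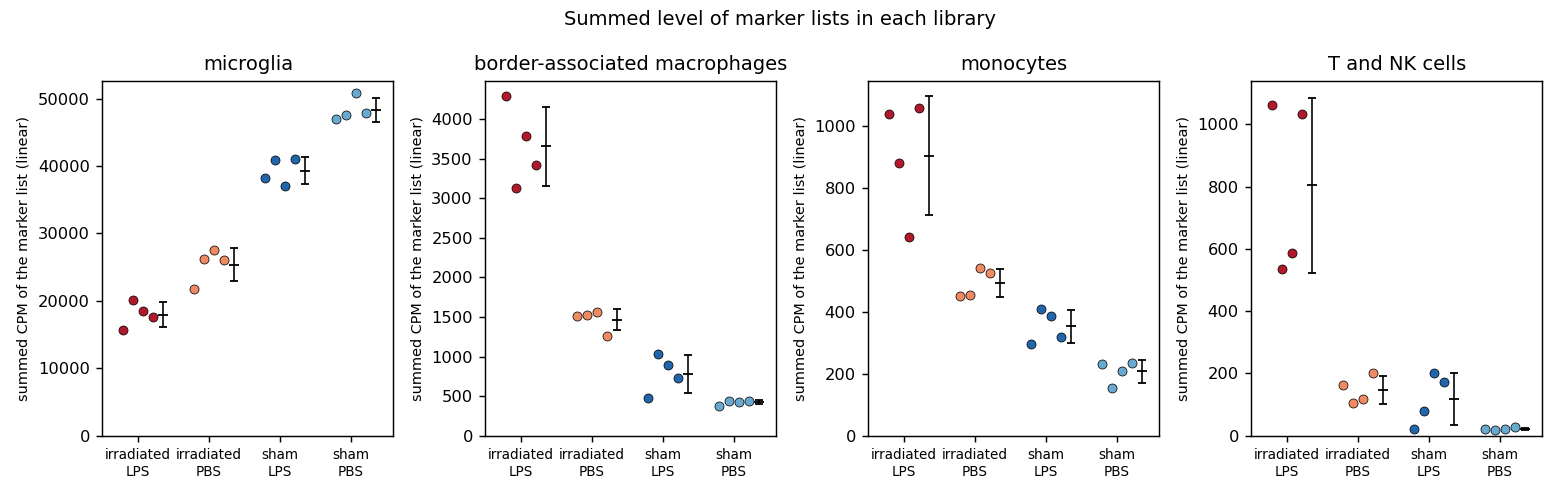
Summed CPM (linear axis from 0) of the markers of microglia, monocytes, border-associated macrophages, and T and NK cells in each library, by group. Points are libraries, and the bar beside them is the mean ± SD (n = 4). Microglial markers are lowest in irradiated rats given LPS (15648 to 20102 CPM) and highest in sham rats given PBS (46989 to 50852 CPM), and the medians of the other 3 lists run in the reverse order.

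Of the 10 genes, 9 passed the filter, and none of these 9 fell in the comparisons of LPS with PBS or of irradiated with sham rats, either in edgeR, DESeq2 or limma voom or at an unadjusted p under 0.05 in edgeR. Of all genes, edgeR called 14.5% lower for LPS in sham rats, 9.91% for irradiation with PBS, 14.5% for LPS in irradiated rats and 12.6% for irradiation with LPS. Tapbp (ENSRNOG00000029500), the tapasin gene, was not tested, with 0 to 14 counts per library and 43 over all 16. How reads were assigned to this gene could not be checked, so its low counts do not show that the transcript was absent. LPS in sham rats raised 2 of the 9 tested genes, Tap1 and Nlrc5, where 15.2% of all tested genes were called higher. Irradiation, compared in rats given PBS, raised 6 of the 9, namely B2m, Tap1, Psmb8, Psmb9, Psme1 and Psme2, against 11.5% of all genes. LPS in irradiated rats raised 5 (Tap1, Tap2, Psmb9, Psme2 and Nlrc5, against 17% of all genes). Irradiation, compared in rats given LPS, raised 7 (B2m, Tap1, Tap2, Psmb9, Psmb10, Psme1 and Psme2, against 15.1%). Tap1 was the only one of the 9 that was called in all 4 comparisons. Groups lay fully apart, with the first above the second, for 2 of the 9 under LPS in sham rats (14.6% of all genes), 6 under irradiation with PBS (13.9%), 5 under LPS in irradiated rats (17.5%) and 6 under irradiation with LPS (15%).

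Median log2 fold changes over the 9 genes were 0.27 for LPS in sham rats, 0.39 for irradiation with PBS, 0.54 for LPS in irradiated rats and 0.58 for irradiation with LPS, while the medians over all tested genes lay between -0.02 and 0.01. Under LPS, Tap1 and Nlrc5 rose 3.90- to 4.63-fold, and the fold changes of the other members apart from Tap2 were at most 0.55 on the log2 scale. Under irradiation the highest value apart from Tap2 was 0.96, for Psmb9. Sham LPS library 1 was the lowest of its group for 8 of the 9 genes, and sham LPS library 3 was the highest for 8. Without sham LPS library 1 the count of members raised by LPS in sham rats was 4 instead of 2, with Psmb9 (0.35, adjusted p = 0.0391, edgeR) and Psme2 (0.36, adjusted p = 0.0134, edgeR) added. In that library, markers of T and NK cells summed to 22.5 CPM, against 77.8 to 200.4 CPM in the other sham LPS libraries and 17.8 to 26.4 CPM in sham rats given PBS. Markers of border-associated macrophages summed to 471 CPM in it, against 726 to 1036 CPM in the other sham LPS libraries. Those of neutrophils, at 300 CPM, were the highest of the group, close to 298 CPM in sham LPS library 2. Those of monocytes were lowest in sham LPS library 1, at 295 CPM against 318 to 410 CPM in its companions. The type I interferon response genes Eif2ak2 and Dtx3l were lowest there (120 and 118 CPM). The interferon gamma-inducible genes Gbp2, Gbp4, Cxcl9, Cxcl11, Cd274 and Igtp were lowest there too (86.2, 20.9, 0.910, 8.68, 9.95 and 392 CPM). Gbp5 was lowest by a small margin (44.9 CPM, against 45.1 CPM in sham LPS library 4). Cxcl10, Icam1, Gch1 and Aim2 (103, 354, 23.6 and 3.46 CPM) were not lowest in sham LPS library 1. The part of these differences in the members' levels was not tested.

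**Figure D2:**
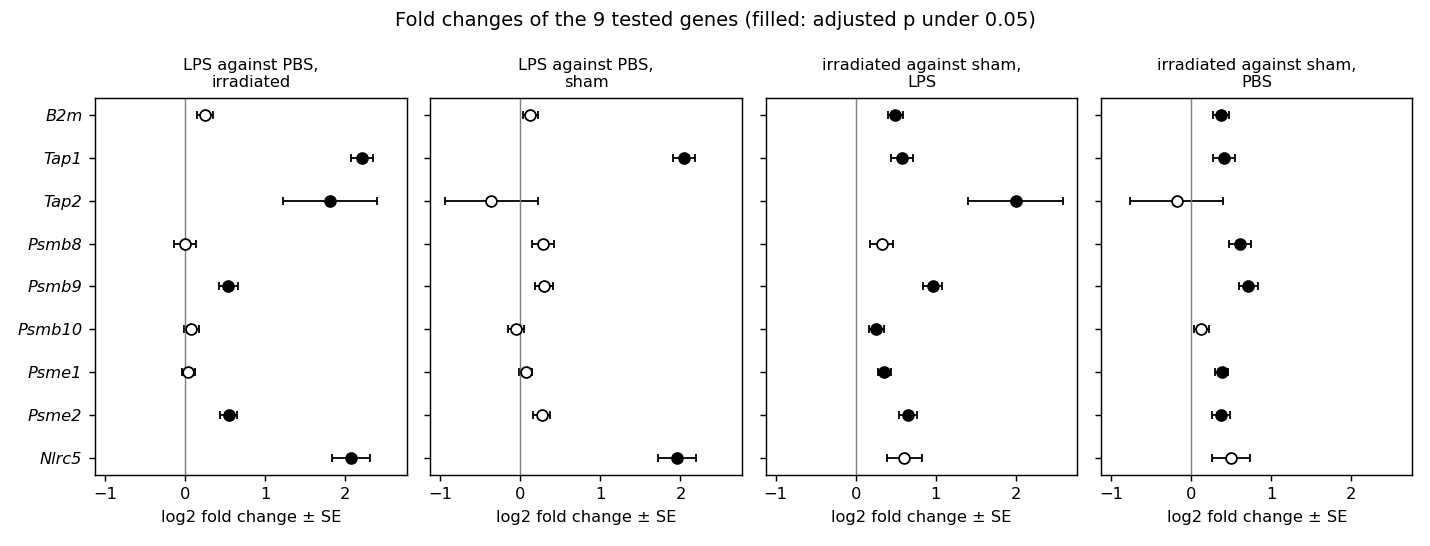
Log2 fold change ± SE (horizontal axes) of the 9 tested genes in 4 comparisons, from the edgeR fit over 16 libraries. Filled points have an adjusted p under 0.05. Tap1 and Nlrc5 lie near 2 in both comparisons of LPS with PBS, and all 9 genes lie to the right of 0 for irradiated against sham rats given LPS.

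Tap1 (ENSRNOG00000000457) encodes one chain of the peptide transporter. In irradiated rats it stood at 327, 339, 376 and 500.1 CPM with LPS, against 77.1, 90.6, 81.1 and 83.7 CPM with PBS. Sham rats had 209, 267, 327 and 229 CPM with LPS, against 66.3, 60.7, 60.8 and 62.0 CPM with PBS. The LPS and PBS groups lay far apart, and the irradiated libraries lay above the sham libraries under both injections, although under LPS the margin was small (326.80 CPM for the lowest irradiated library, against 326.78 CPM for the highest sham one). LPS raised Tap1 by 2.21 ± 0.14 in irradiated rats (log2 fold change ± SE, 4.63-fold, adjusted p = 4.37e-09, edgeR) and by 2.05 ± 0.14 in sham rats (4.13-fold, adjusted p = 7.32e-09). Irradiation raised it by 0.58 ± 0.13 in rats given LPS (adjusted p = 0.00309) and by 0.41 ± 0.14 in rats given PBS (adjusted p = 0.0358). The last of these calls was near its threshold. It was lost when any of the 4 sham PBS libraries or irradiated PBS library 2, 3 or 4 was left out, with fold changes between 0.37 and 0.44 and adjusted p between 0.0522 and 0.0975 (edgeR).

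Nlrc5 (ENSRNOG00000048222), the transactivator of class I genes, had the same order of groups. It stood at 53.7, 40.0, 37.3 and 59.7 CPM in irradiated rats given LPS, against 9.39, 11.6, 9.23 and 14.9 CPM in irradiated rats given PBS. Sham rats had 25.5, 37.3, 33.9 and 28.2 CPM with LPS and at 4.50, 8.32, 8.24 and 10.9 CPM with PBS. The LPS groups were above the PBS groups in every library, whereas irradiated and sham rats overlapped with PBS and were just apart with LPS (37.347 CPM for the lowest irradiated and 37.341 CPM for the highest sham library). LPS raised Nlrc5 by 2.07 ± 0.23 in irradiated rats (4.21-fold, adjusted p = 2.52e-06, edgeR) and by 1.96 ± 0.24 in sham rats (3.90-fold, adjusted p = 7.16e-06). For irradiation the fold changes were 0.61 ± 0.22 with LPS (adjusted p = 0.0504) and 0.50 ± 0.23 with PBS (adjusted p = 0.149). With LPS the difference fell on the other side of the threshold in 9 of 17 alternatives. It did so in DESeq2 (adjusted p = 0.0323) and in limma voom (adjusted p = 0.0150). In edgeR it did so with counts summed per symbol (0.0468), only the groups compared (0.0273), library totals (0.0314) or a replicate block (0.0349). The same held in edgeR without sham LPS library 2 (0.0448) or irradiated LPS library 2 (0.0482) or 3 (0.0327).

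Upstream sequence is shown for these genes because members that move together can be compared by their promoter letters. Promoters from RefSeq (build GRCr8, 250 bases before to 50 after the gene's start) were found for 9 of the 10 members, and for all 3 constitutive counterparts of the inducible proteasome subunits. Nlrc5 had no entry. The interferon-stimulated response element core GAAANNGAAA, searched on both strands, was present in 7 of the 9 member promoters (B2m, Tap1, Tap2, Tapbp, Psmb8, Psmb10 and Psme2) and in 3.92% of all 33469 promoters of that length. It was in 0 of the 3 promoters of Psmb5, Psmb6 and Psmb7, and in neither the Psmb9 nor the Psme1 window. A kappa B motif was present in the B2m, Tap1 and Tapbp promoters and in 7.51% of all promoters. Of 3 further motifs searched on both strands, the gamma-activated site TTCNNNGAA was in 1 of the 9 member promoters (Psmb8) and in 8.87% of all promoters, the cyclic AMP response element core TGACG in 2 (B2m and Psmb9) and in 21.2%, and the CCAAT box in 3 (B2m, Psmb8 and Psmb9) and in 37.5%. A match is a description of letters in the window, and nothing was measured at these sites. The first 2 lines give the 250 bases before the start of Tap1 (chr20:4668544-4668793, minus strand) and of B2m (chr3:129549080-129549329, plus strand), the member with the largest LPS fold change and the light chain, with the response element core and the kappa B motif in capitals. In Tap1 the core lies on the opposite strand, from -121 to -112, and the kappa B motif spans -55 to -46. In B2m the core spans -150 to -141, and the kappa B motif follows on the opposite strand, from -137 to -128.
Tap1: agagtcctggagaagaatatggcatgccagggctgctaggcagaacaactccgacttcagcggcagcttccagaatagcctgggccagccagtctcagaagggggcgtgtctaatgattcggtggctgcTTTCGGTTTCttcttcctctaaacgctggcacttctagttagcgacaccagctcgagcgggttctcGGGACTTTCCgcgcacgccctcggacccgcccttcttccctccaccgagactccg
B2m: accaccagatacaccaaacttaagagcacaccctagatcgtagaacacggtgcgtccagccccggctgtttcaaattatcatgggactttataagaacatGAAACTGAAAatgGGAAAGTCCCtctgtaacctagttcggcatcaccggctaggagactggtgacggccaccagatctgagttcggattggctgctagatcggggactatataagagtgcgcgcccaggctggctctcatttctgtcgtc

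The remaining member matches are shown with 20 bases on each side and the core in capitals, so that the flanks can be compared. The start of the core lies at -41 in Tap2, -4 in Psmb8, -73 and -17 in Psmb10, -53 in Psme2 and -20 in Tapbp, where a second match begins at -26 and overlaps it. RT1-S3, a class I heavy chain gene, has the core at -112 on the opposite strand. Windows are chr20:4652308-4652357 (Tap2), chr20:4657006-4657055 (Psmb8), chr19:50743336-50743385 and chr19:50743280-50743329 (Psmb10), chr15:33052775-33052824 (Psme2), chr20:4967868-4967917 (Tapbp), all on the minus strand, and chr20:2675396-2675445 (RT1-S3, plus strand). The windows of Tap2, Psmb8, Psme2 and the one of Psmb10 nearer to the start hold the same 10 letters GAAAGCGAAA, on the opposite strand in Psmb8.
Tap2: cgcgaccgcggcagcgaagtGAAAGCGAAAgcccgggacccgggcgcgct
Psmb8: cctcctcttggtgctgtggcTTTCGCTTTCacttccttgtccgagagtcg
Psmb10, farther from the start: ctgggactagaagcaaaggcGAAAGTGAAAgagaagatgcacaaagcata
Psmb10, nearer to the start: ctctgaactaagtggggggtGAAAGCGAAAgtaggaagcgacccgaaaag
Psme2: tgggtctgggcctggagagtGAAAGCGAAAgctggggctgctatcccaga
Tapbp: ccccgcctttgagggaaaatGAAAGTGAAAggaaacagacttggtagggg
RT1-S3: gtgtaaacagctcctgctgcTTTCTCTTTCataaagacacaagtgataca

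Of the 10 members, 5 lie on chromosome 20 in the RefSeq annotation of that build. Tap2, Psmb8, Tap1 and Psmb9 are consecutive protein-coding genes, with the class II gene RT1-DOb as the neighbour of Tap2 on its other side. Tap1 and Psmb9 are transcribed away from each other with 456 bases between their starts. The response element core counted for Tap1 thus lies between -345 and -336 as seen from Psmb9, outside the Psmb9 window. On the log2 scale, LPS raised Psmb9 by 0.54 and Tap1 by 2.21 in irradiated rats. In sham rats the fold change of Psmb9 was 0.30 and did not pass the test (adjusted p = 0.0646, edgeR), where Tap1 rose by 2.05. Irradiation raised Psmb9 by 0.96 and Tap1 by 0.58 with LPS, and Psmb9 by 0.72 and Tap1 by 0.41 with PBS. The differences between the genes were not tested.

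**Figure D3:**
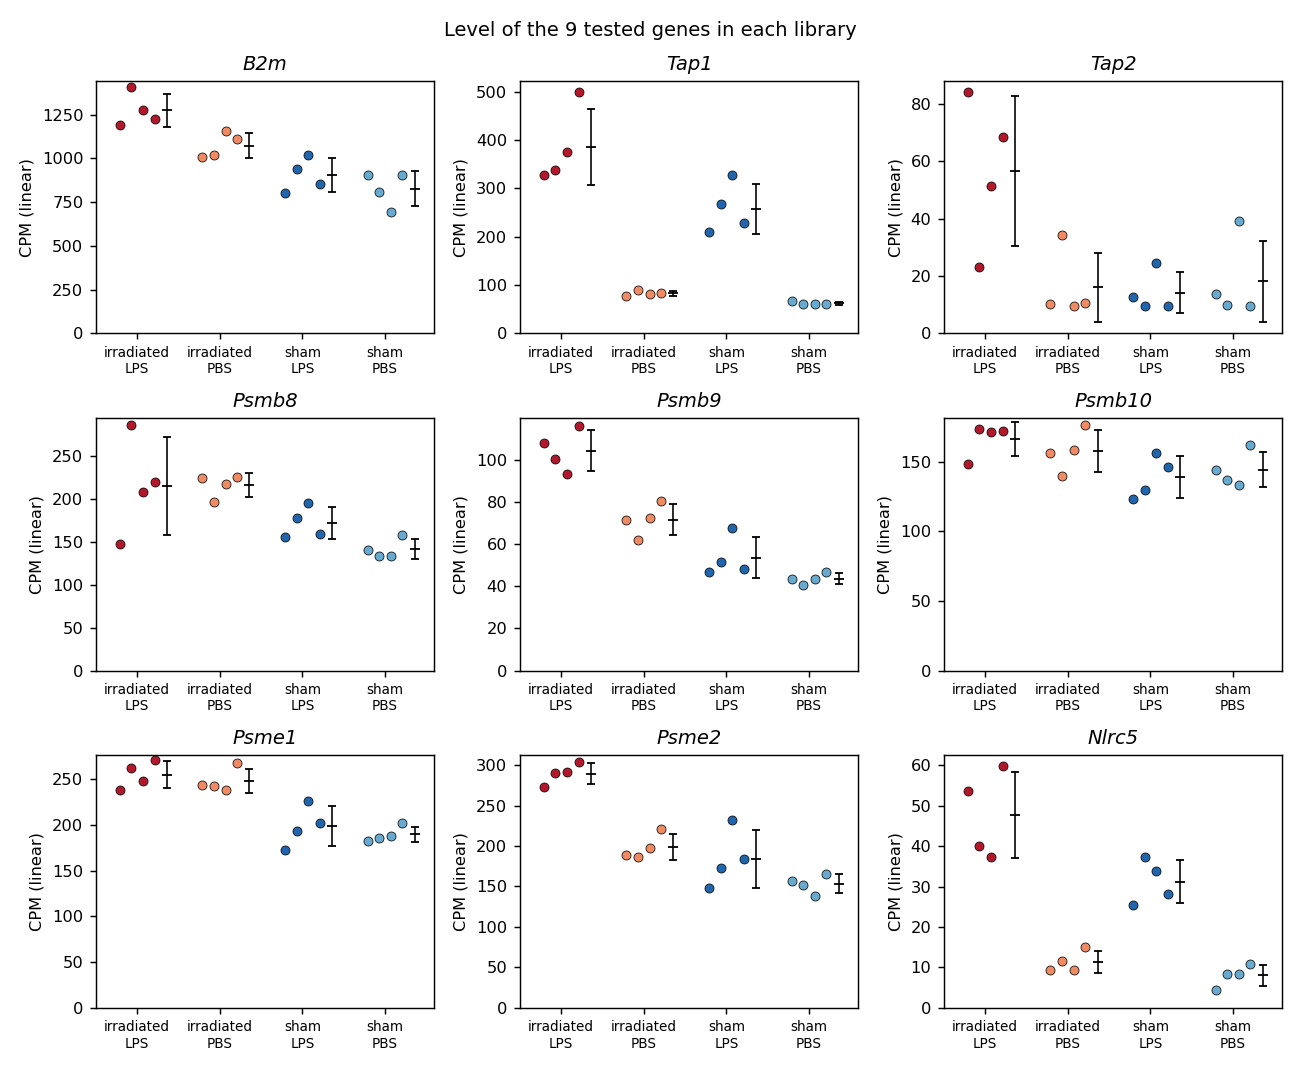
CPM (linear axes from 0) of the 9 tested genes in each of 16 libraries, by group. Points are libraries, and the bar beside them is the mean ± SD (n = 4). Tap1 and Nlrc5 separate by injection, Psme1 separates by irradiation, and Psmb9 and Psme2 are highest in irradiated rats given LPS.

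Tap2 (ENSRNOG00000000455), the partner chain of Tap1 in the transporter, varied between libraries of the same group more than any other tested member. It stood at 83.9, 23.0, 51.4 and 68.3 CPM in irradiated rats given LPS and at 10.1, 34.2, 9.43 and 10.7 CPM in irradiated rats given PBS. In sham rats it stood at 12.6, 9.72, 24.6 and 9.59 CPM with LPS and at 13.9, 10.0, 39.1 and 9.65 CPM with PBS. In each of the irradiated PBS, sham LPS and sham PBS groups 1 library was far above its companions, while in irradiated rats given LPS 3 libraries were high and 1 was low. The coefficient of variation within groups was 46.0% to 77.5% for Tap2, and 4.21% to 32.9% for the other 8 genes. LPS raised Tap2 in irradiated rats by 1.81 ± 0.59 (adjusted p = 0.0300, edgeR) and irradiation raised it with LPS by 2.00 ± 0.59 (adjusted p = 0.0216), but the groups overlapped in both comparisons. The first call was lost without irradiated PBS library 1, 3 or 4 or irradiated LPS library 1 or 4 (adjusted p from 0.0688 to 0.0870, edgeR). The same happened with no filter on low counts (adjusted p = 0.0633) and without both irradiated libraries numbered 1 (adjusted p = 0.157). The second was lost without sham LPS library 1, 2 or 4 or irradiated LPS library 1 or 4 (adjusted p from 0.0507 to 0.0644). Leaving out both irradiated libraries numbered 1 also removed it (adjusted p = 0.0612, edgeR). For LPS in sham rats the fold change was -0.36 ± 0.58 and turned to 0.34 without sham PBS library 3. For irradiation with PBS it was -0.18 ± 0.58 and turned to 0.53 without the same library.

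Libraries with high Tap2 were mostly those with high RT1-DOb and RT1-CE16. Among 3135 genes with a within-group SD of at least 0.5 on the log2 scale, RT1-DOb, a class II gene next to Tap2, and RT1-CE16, a class I heavy chain gene between Pou5f1 and RT1-CE15, had the deviations from the group mean most like those of Tap2 (Pearson r = 0.89 and 0.85 over 16 libraries, a description of shared libraries chosen after the values were seen). RT1-CE16 stood at 897, 35.8, 537 and 525 CPM in irradiated rats given LPS and at 181, 452, 27.1 and 30.8 CPM in irradiated rats given PBS. Sham rats had 13.3, 11.0, 17.1 and 15.2 CPM with LPS and at 12.4, 12.7, 321 and 15.1 CPM with PBS. Irradiated PBS library 2 and sham PBS library 3, the highest of their groups for Tap2, were also the highest for RT1-CE16 and RT1-DOb. Irradiated LPS library 2, the lowest for Tap2, was the lowest for both. Sham LPS library 3, the highest of its group for Tap2, had 17.1 CPM of RT1-CE16 and 0.573 CPM of RT1-DOb, close to its companions. Psmb8, the neighbour of Tap2 on its other side, had deviations that ran against those of Tap2 (Pearson r = -0.48). RT1-CE1, another class I heavy chain gene, ran the other way in several of these libraries. It stood at 10.9 CPM in irradiated LPS library 1 and at 16.4 CPM in sham PBS library 3, against 48.7 to 96.7 CPM and 49.1 to 60.5 CPM in their companions. Differences between RT1 alleles of these rats, and reads shared among RT1 paralogs, were not tested.

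**Figure D4:**
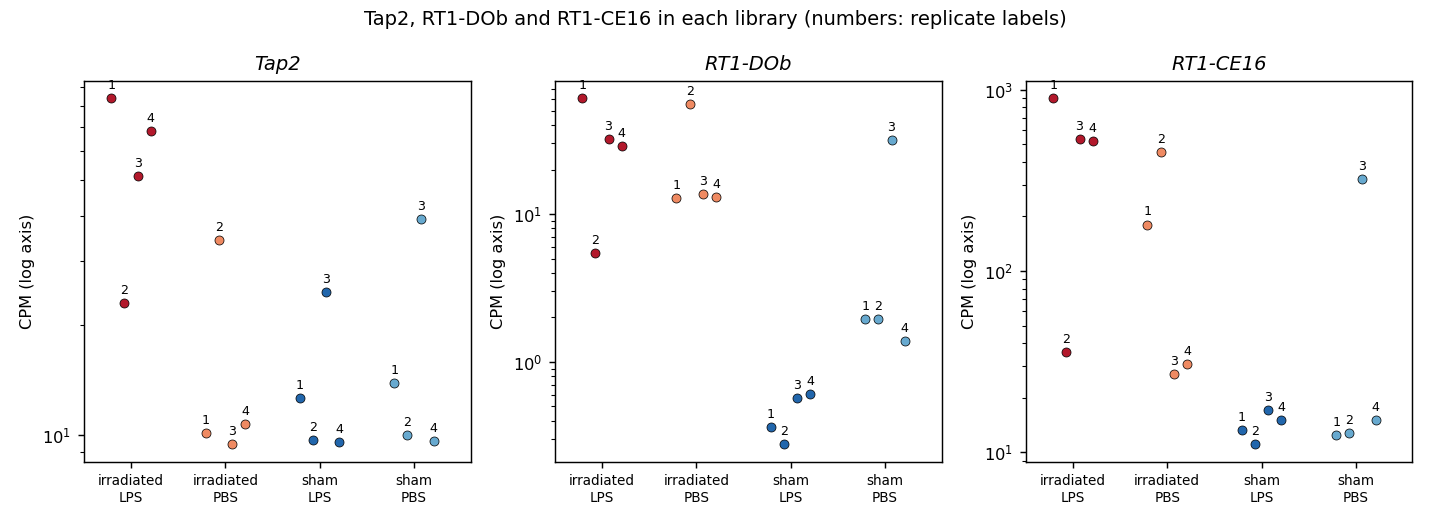
CPM on log axes of Tap2, its neighbour RT1-DOb and the class I heavy chain gene RT1-CE16 in each library, by group, with replicate labels. Library 2 of irradiated rats given PBS and library 3 of sham rats given PBS are the highest of their groups in all 3 panels, and library 2 of irradiated rats given LPS is the lowest of its group in all 3.

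B2m (ENSRNOG00000017123), the light chain shared by all class I molecules, rose with irradiation under both injections. It stood at 1193, 1406, 1274 and 1226 CPM in irradiated rats given LPS, against 802, 942, 1018 and 851 CPM in sham rats given LPS. With PBS it stood at 1008, 1019, 1155 and 1110.3 CPM in irradiated rats and at 905, 807, 694 and 903 CPM in sham rats. Irradiated libraries were above sham libraries under both injections, and irradiated rats given LPS were above those given PBS. Irradiation raised B2m by 0.50 ± 0.10 with LPS (1.41-fold, adjusted p = 0.000656, edgeR) and by 0.38 ± 0.10 with PBS (1.30-fold, adjusted p = 0.00804). For LPS the fold changes were 0.25 ± 0.10 in irradiated rats (adjusted p = 0.0555) and 0.13 ± 0.10 in sham rats (adjusted p = 0.349). The difference in irradiated rats passed the threshold in 4 of 17 alternatives. These were DESeq2 (adjusted p = 0.0388) and edgeR without irradiated LPS library 1 (0.28, adjusted p = 0.0474). The others were edgeR with RLE instead of TMM factors (adjusted p = 0.0473) and with only the groups compared (adjusted p = 0.0433).

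The heavy chains that pair with B2m were described as a list of 21 RT1 class I gene IDs, of which 13 passed the filter. Irradiation raised 4 of 13 with LPS and 3 of 13 with PBS, against 15.1% and 11.5% of all genes. LPS raised 1 of 13 in irradiated and in sham rats alike, against 17% and 15.2%. One of the 4 was RT1-CE16, which varied widely between irradiated LPS libraries (35.8 to 897 CPM). RT1-S3 was the heavy chain raised in all 4 comparisons. It averaged 590 ± 34.5 CPM in irradiated rats given LPS, 348 ± 38.7 CPM in irradiated rats given PBS, 246 ± 82.2 CPM in sham rats given LPS and 161 ± 22.0 CPM in sham rats given PBS (SD, n = 4 each). Irradiation raised it by 1.26 ± 0.18 with LPS and by 1.11 ± 0.18 with PBS (adjusted p = 4.74e-05 and 0.000240, edgeR), and LPS raised it by 0.76 ± 0.18 in irradiated rats and by 0.61 ± 0.18 in sham rats (adjusted p = 0.00332 and 0.0153). RT1-M3-1 fell under LPS, by 0.51 in irradiated rats and by 0.53 in sham rats (adjusted p = 0.00125 and 0.00108, edgeR). Median log2 fold changes of the 13 genes were 0.64 for irradiation with LPS, 0.65 for irradiation with PBS, -0.12 for LPS in irradiated rats and 0.01 for LPS in sham rats. Summed over the 21 IDs, heavy chain levels were 2151 ± 127 CPM in irradiated rats given LPS, 1686 ± 96.8 CPM in irradiated rats given PBS, 1026 ± 135 CPM in sham rats given LPS and 1046 ± 63.2 CPM in sham rats given PBS (SD, n = 4 each). The sum is less exposed than single IDs to reads split between near-identical RT1 genes.

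Psmb9 (ENSRNOG00000000459), the inducible beta1 subunit of the proteasome, was the catalytic subunit with the widest change. It stood at 108, 100.3, 93.2 and 116 CPM in irradiated rats given LPS and at 71.7, 62.2, 72.5 and 80.3 CPM in irradiated rats given PBS. In sham rats it stood at 46.9, 51.4, 67.8 and 48.0 CPM with LPS and at 43.2, 40.4, 43.7 and 47.0 CPM with PBS. Irradiated rats given LPS were above all other groups, and irradiated rats given PBS were above sham rats given PBS but overlapped sham rats given LPS. Irradiation raised Psmb9 by 0.96 ± 0.12 with LPS (1.95-fold, adjusted p = 5.96e-06, edgeR) and by 0.72 ± 0.12 with PBS (1.64-fold, adjusted p = 0.000207). LPS raised it by 0.54 ± 0.12 in irradiated rats (adjusted p = 0.00150), and in sham rats the fold change was 0.30 ± 0.12 (adjusted p = 0.0646).

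Psmb8 (ENSRNOG00000000456), the inducible beta5 subunit, rose only for irradiation with PBS among the 4 comparisons. It stood at 225, 197, 218 and 226 CPM in irradiated rats given PBS, against 141, 134, 133 and 158 CPM in sham rats given PBS, with no overlap. The change was 0.61 ± 0.14 (1.53-fold, adjusted p = 0.00435, edgeR). With LPS it stood at 147, 287, 209 and 220.4 CPM in irradiated rats and at 156, 179, 196 and 159 CPM in sham rats, and irradiated LPS library 1 lay below all 4 sham libraries. The fold change of irradiation with LPS was 0.32 ± 0.14 (adjusted p = 0.1001), and 0.47 without that library (adjusted p = 0.00492). In irradiated LPS library 1, markers of neutrophils summed to 2410.5 CPM and markers of neurons to 110.4 CPM, against 408 to 609 CPM and 8.72 to 25.5 CPM in the other 3 libraries of the group. The same library was the highest of its group for Tap2 (83.9 CPM) and RT1-CE16 (897 CPM). Irradiated LPS library 2, the highest for Psmb8, was the lowest for both. Irradiated PBS library 2 was the highest of its group for Tap2 and the lowest for Psmb8, while sham LPS library 3 was the highest for both. The part of these differences in the Psmb8 level was not tested. LPS changed Psmb8 by -0.0029 ± 0.14 in irradiated rats and by 0.28 ± 0.14 in sham rats (adjusted p = 0.992 and 0.144).

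Psmb10 (ENSRNOG00000019353), the inducible beta2 subunit, moved least. It stood at 148, 174, 171 and 172 CPM in irradiated rats given LPS, at 156, 140.1, 159 and 176 CPM in irradiated rats given PBS, at 123, 130.1, 156 and 147 CPM in sham rats given LPS and at 144, 137, 134 and 162 CPM in sham rats given PBS. Each group overlapped its neighbours in the order of means. Irradiation with LPS gave a fold change of 0.26 ± 0.10 with an adjusted p of 0.0498 (edgeR). This call was lost without sham LPS library 1, 2 or 4 or irradiated LPS library 2, 3 or 4 (adjusted p from 0.0571 to 0.1502). In edgeR it was also lost with no filter on low counts (adjusted p = 0.0838) or with only the groups compared (adjusted p = 0.0808). In the other 3 comparisons the fold changes were between -0.05 and 0.13.

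The inducible subunits take the places of Psmb6 (beta1), Psmb7 (beta2) and Psmb5 (beta5), so the ratio of each pair was compared between groups. A ratio within a library does not depend on library scaling, and differences of log2 ratios were tested with exact two-sided permutation tests over 4 against 4 libraries (smallest possible p 0.0286, 12 tests). The log2 ratio of Psmb9 to Psmb6 was -0.50, -0.76, -0.82 and -0.60 in irradiated rats given LPS, -0.96, -1.11, -0.98 and -1.01 in irradiated rats given PBS, -1.37, -1.33, -1.33 and -1.72 in sham rats given LPS and -1.59, -1.61, -1.77 and -1.59 in sham rats given PBS. Both irradiated groups were above both sham groups in every library, and within the irradiated rats LPS was above PBS in every library. The difference was 0.77 ± 0.12 for irradiation with LPS, 0.63 ± 0.05 for irradiation with PBS and 0.34 ± 0.08 for LPS in irradiated rats (SE, each exact p = 0.0286, adjusted 0.0857 over the 12 tests). For LPS in sham rats it was 0.20 ± 0.10 (exact p = 0.114, adjusted 0.274). The log2 ratio of Psmb8 to Psmb5 differed by 0.32 ± 0.07 for irradiation with PBS, again with no overlap (exact p = 0.0286, adjusted 0.0857). The ratio of Psmb10 to Psmb7 differed by no more than 0.11 in any comparison, and its groups overlapped throughout. None of the 12 adjusted values was under 0.05, which 4 against 4 libraries allow only if most of the tests reach the smallest p.

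**Figure D5:**
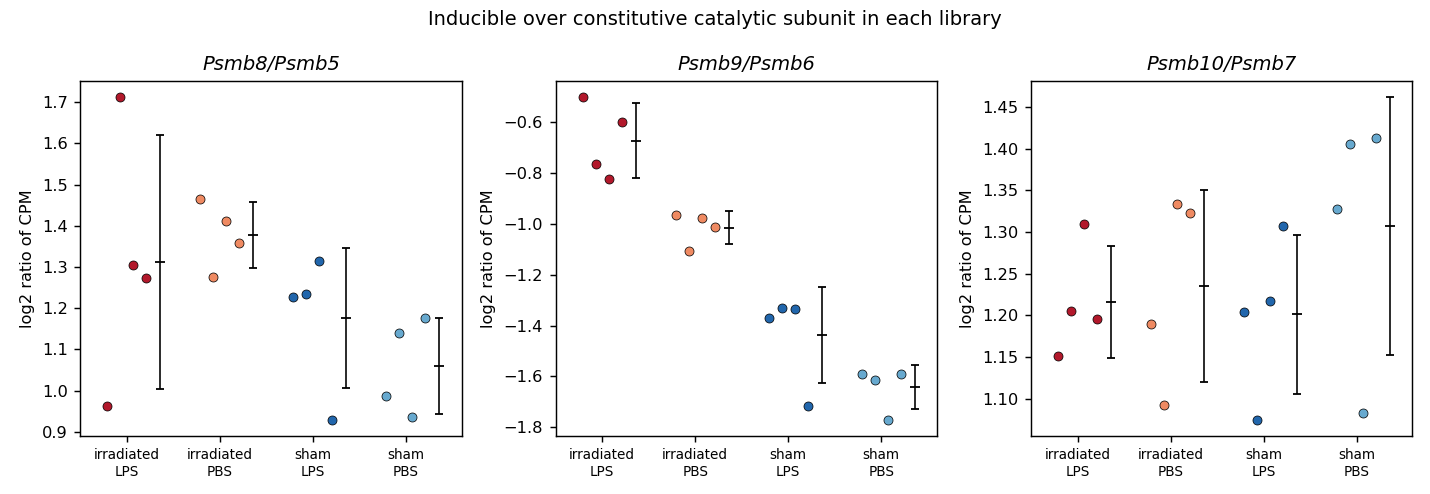
Log2 ratio of CPM of each inducible catalytic subunit to its constitutive counterpart in each library, by group. Points are libraries, and the bar beside them is the mean ± SD (n = 4). The ratio of Psmb9 to Psmb6 lies between -1.11 and -0.50 in irradiated rats and between -1.77 and -1.33 in sham rats, while the groups overlap for Psmb10 to Psmb7.

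The constitutive subunits themselves changed little. Irradiation raised Psmb5 with PBS by 0.29 ± 0.09 (adjusted p = 0.0226, edgeR) and Psmb7 with LPS by 0.25 ± 0.09 (adjusted p = 0.0483), and Psmb6 passed no test, with fold changes from 0.09 to 0.20. Among 11 other subunits of the 20S core, LPS raised 6 in irradiated rats and 3 in sham rats, against 17% and 15.2% of all genes. Irradiation raised 5 of the 11 with LPS and 1 with PBS, against 15.1% and 11.5%. Medians of the 11 were 0.32, 0.21, 0.23 and 0.09 for LPS in irradiated rats, LPS in sham rats, irradiation with LPS and irradiation with PBS. Psma6, an alpha ring subunit, rose under LPS by 0.64 ± 0.09 in irradiated and 0.53 ± 0.09 in sham rats (adjusted p = 3.13e-05 and 0.000283, edgeR). Psmb4, a beta ring subunit without catalytic activity, rose in all 4 comparisons by 0.28 to 0.44. Pomp, the chaperone that helps assemble new core particles, rose with irradiation by 0.49 ± 0.10 with LPS and 0.38 ± 0.10 with PBS (adjusted p = 0.000813 and 0.00825), and had fold changes of 0.0068 ± 0.10 in irradiated and -0.11 ± 0.10 in sham rats under LPS.

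Psme1 (ENSRNOG00000019041) and Psme2 (ENSRNOG00000019246) encode the alpha and beta chains of the PA28 activator. Psme1 stood at 239, 262, 249 and 272 CPM in irradiated rats given LPS, against 173, 193, 226 and 202 CPM in sham rats given LPS. With PBS it stood at 244, 243, 238 and 268 CPM in irradiated rats and at 183, 186, 188 and 202 CPM in sham rats. Every irradiated library was above every sham library, whichever injection was given. Irradiation raised Psme1 by 0.36 ± 0.08 with LPS and by 0.39 ± 0.08 with PBS (adjusted p = 0.00249 and 0.00193, edgeR), and LPS changed it by 0.04 ± 0.08 in irradiated and 0.07 ± 0.08 in sham rats (adjusted p = 0.763 and 0.582).

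Psme2 moved with both factors. It stood at 273, 291, 291 and 304 CPM in irradiated rats given LPS and at 189, 186, 197 and 221 CPM in irradiated rats given PBS. The sham libraries had 148, 172, 232 and 184 CPM with LPS and at 157, 151, 138 and 166 CPM with PBS. Irradiated rats given LPS were above all other groups, and irradiated rats given PBS were above sham rats given PBS. Irradiation raised Psme2 by 0.65 ± 0.11 with LPS (adjusted p = 0.000170, edgeR) and by 0.37 ± 0.11 with PBS (adjusted p = 0.0190). The call with PBS was lost without sham PBS library 3 (0.32, adjusted p = 0.0712) or irradiated PBS library 4 (0.32, adjusted p = 0.0695). LPS raised it by 0.55 ± 0.11 in irradiated rats (adjusted p = 0.000819), and in sham rats the fold change was 0.27 ± 0.11 (adjusted p = 0.0749).

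Whether the response to LPS differed between irradiated and sham rats was tested as an interaction. None of the 9 genes passed this test in edgeR, where 1.26% of all genes did, and 1 of the 9 had an unadjusted p under 0.05. That gene was Tap2, with a difference of 2.18 ± 0.82 (adjusted p = 0.291). None of the 9 was called with DESeq2 or limma voom either. Psme2 (0.28 ± 0.15), Psmb9 (0.25 ± 0.16) and Psmb8 (-0.29 ± 0.20) had the next largest differences, and for Tap1 and Nlrc5 the differences were 0.17 ± 0.19 and 0.11 ± 0.32 on top of LPS responses near 2. A difference that misses the threshold does not show equal responses, since the SE of the interaction was 0.11 to 0.32 for the 8 genes other than Tap2.

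Irradiation alone was also compared with LPS alone. In irradiated rats given PBS, 3 of the 9 genes were higher than in sham rats given LPS (B2m by 0.25 ± 0.10, Psmb9 by 0.42 ± 0.12 and Psme1 by 0.32 ± 0.08, adjusted p = 0.0484, 0.00829 and 0.00439, edgeR), where 18.4% of all genes were. Tap1 and Nlrc5 were lower, where 18.8% of all genes were, by -1.63 ± 0.14 and -1.46 ± 0.23 (adjusted p = 6.26e-08 and 7.61e-05). For B2m the call was lost without sham LPS library 1, 2 or 4 or irradiated PBS library 2, 3 or 4 (adjusted p from 0.0587 to 0.145). With no filter on low counts it was lost as well (adjusted p = 0.0753, edgeR). Psmb8 was 0.33 ± 0.14 higher and missed the threshold (adjusted p = 0.0791), although its groups did not overlap. Groups lay fully apart upwards for 2 of the 9 (Psmb8 and Psme1, against 17.9% of all genes) and downwards for 2 (Tap1 and Nlrc5, against 17.4%). With library totals as the scale, under which the median of all genes was 0.23 instead of 0.04, 8 of the 9 genes were called instead of 5, with Psmb8, Psmb10 and Psme2 added as higher. Over all 13608 genes that scale gave 3748 higher and 1610 lower calls, against 2502 and 2557 with TMM factors.

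Among regulators of these genes, Irf1 rose with LPS and Ciita with irradiation. Irf1, an interferon regulatory factor that binds the response element core, stood at 348, 366, 444 and 542 CPM in irradiated rats given LPS, against 69.4, 69.2, 99.4 and 92.9 CPM in irradiated rats given PBS. In sham rats it stood at 401, 403, 585 and 389 CPM with LPS and at 79.4, 67.5, 72.6 and 92.4 CPM with PBS. LPS raised Irf1 by 2.36 ± 0.17 in irradiated and by 2.51 ± 0.18 in sham rats (adjusted p = 3.00e-08 and 1.89e-08, edgeR), and irradiation changed it by -0.06 ± 0.17 with LPS and 0.09 ± 0.17 with PBS. Ciita, the class II relative of Nlrc5, averaged 22.2 ± 5.83 CPM in irradiated rats given LPS, 15.5 ± 3.84 CPM in irradiated rats given PBS, 4.40 ± 2.71 CPM in sham rats given LPS and 3.25 ± 1.09 CPM in sham rats given PBS (SD, n = 4 each). Irradiation raised it by 2.33 ± 0.37 with LPS and 2.26 ± 0.38 with PBS (adjusted p = 0.000124 and 0.000280). Under LPS its fold changes were 0.52 ± 0.35 in irradiated and 0.44 ± 0.38 in sham rats (adjusted p = 0.293 and 0.418). Stat2, part of the factor downstream of type I interferons, was the regulator with a called interaction (0.67 ± 0.16, adjusted p = 0.0455), and rose under LPS by 1.37 ± 0.11 in irradiated and 0.70 ± 0.11 in sham rats. Irf2 rose under LPS by 0.53 ± 0.09 in irradiated and 0.72 ± 0.09 in sham rats, and fell with irradiation by 0.54 with LPS and by 0.35 with PBS. Rfx5, a subunit of the factor that recruits Nlrc5 and Ciita, did not pass the test in these 4 comparisons. Of the 17 regulators tested, LPS raised 5 in irradiated rats, and raised 7 and lowered 1 in sham rats. Irradiation raised 2 and lowered 3 with LPS, and raised 3 and lowered 2 with PBS. Of all genes, LPS raised 17% in irradiated rats, and raised 15.2% and lowered 14.5% in sham rats. Irradiation raised 15.1% and lowered 12.6% of all genes with LPS, and raised 11.5% and lowered 9.91% with PBS.

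Interferon transcripts themselves were near the limit of detection. None of 7 interferon gene IDs passed the filter. Ifng, named after its values were seen, had 15 to 34 counts per library in irradiated rats given LPS, 1 to 5 in irradiated rats given PBS and 0 in all 8 sham libraries, which allows up to 3 counts in each. Summed markers of T and NK cells, known sources of interferon gamma, ranged from 536 to 1060.5 CPM in irradiated rats given LPS and from 107 to 201 CPM in irradiated rats given PBS. They ranged from 22.5 to 200.4 CPM in sham rats given LPS and from 17.8 to 26.4 CPM in sham rats given PBS. None of the 16 markers found was at 0 in all 4 libraries of a group. In single sham libraries, however, Cd3e, Cd3d, Cd3g and Cd8b were at 0, and they had at most 17 counts in any sham library. T and NK cells carry high CD45, whereas the sort was set for high CD11b and intermediate CD45. How many of them were in the sorted cells was not measured. The part of these cells in the members' levels was not tested.

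Lists of interferon-responsive genes gave a backdrop for the 10 members. Of all genes, LPS raised 17% in irradiated and 15.2% in sham rats, and irradiation raised 15.1% with LPS and 11.5% with PBS. Of 14 tested genes known to be inducible by interferon gamma, LPS raised 12 in irradiated and 10 in sham rats, and irradiation raised 9 with LPS and 6 with PBS. Aim2 fell under LPS in sham rats and Slamf8 fell with irradiation under PBS, the only falls in these 4 comparisons. Their median log2 fold changes were 1.89 for LPS in irradiated rats, 0.98 for LPS in sham rats, 1.41 for irradiation with LPS and 0.25 for irradiation with PBS. The guanylate-binding protein gene Gbp5 and the checkpoint ligand gene Cd274 (PD-L1) were the 2 with a called interaction (2.12 ± 0.28 and 2.13 ± 0.29, adjusted p = 0.00102 for both, edgeR). Gbp5 averaged 211 ± 52.0 CPM in irradiated rats given LPS, 25.9 ± 4.45 CPM in irradiated rats given PBS, 49.3 ± 7.99 CPM in sham rats given LPS and 26.5 ± 6.24 CPM in sham rats given PBS (SD, n = 4 each). Of 24 tested type I interferon response genes, LPS raised 21 in irradiated and 16 in sham rats, and irradiation raised 21 with LPS and 16 with PBS, with medians of 1.49 and 1.22 for LPS and of 1.59 and 1.04 for irradiation. One of the 24, Bst2, fell under LPS in irradiated rats. The members' medians stood below those of both lists except for irradiation with PBS, where the interferon gamma list had 0.25 and the members had 0.39. These differences were not tested. Among 7 receptor and kinase genes of interferon signalling, LPS raised 6 in irradiated and in sham rats, including both interferon gamma receptor chains, and lowered Tyk2 (by 0.82 and 0.54, adjusted p = 0.00287 and 0.0404). Ifngr1, which encodes the ligand-binding chain, fell with irradiation by 0.68 with LPS and by 0.57 with PBS (adjusted p = 2.40e-05 and 0.000193).

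Canx and Calr, chaperones of class I loading, were lower in irradiated rats with either injection. Of 5 tested genes of chaperones and peptidases, irradiation lowered 2 with LPS and 3 with PBS, against 12.6% and 9.91% of all genes. Median fold changes of the 5 were -0.15 and -0.29. Under LPS the medians were 0.09 in irradiated and -0.04 in sham rats. Canx (calnexin) fell with irradiation by 0.31 with LPS and by 0.49 with PBS (adjusted p = 0.00279 and 6.96e-05, edgeR), Calr (calreticulin) by 0.22 and 0.23 (adjusted p = 0.0328 and 0.0330), and Pdia3, the disulfide isomerase of the loading complex, by 0.31 with PBS (adjusted p = 0.00531). Erap1, the endoplasmic reticulum aminopeptidase that trims peptides, had fold changes from -0.14 to 0.10 with adjusted p of 0.439 or more.

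Within groups, the members other than Tap2 tended to be high or low in the same libraries. Over 28 pairs of the 8 genes, Pearson r of the deviations from the group means was -0.04 to 0.90 with a median of 0.54 (16 libraries, which share depth and scaling within a library), and 26 of the 28 were above 0. Psme1 and Psme2 had the highest value. Over the 8 pairs with Tap2 it was -0.48 to 0.38 with a median of -0.02. Irradiated PBS library 4 and sham PBS library 4 were each the highest of their group for 6 of the 9 genes, and irradiated LPS library 1 was the lowest for 6.

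The genes whose levels across the 16 libraries were most like the mean of the members were found among all genes with a symbol and a mean log2 CPM of at least 3. The 8 nearest were RT1-S3 (Pearson r = 0.97), Dynlt1 (0.97), a dynein light chain gene, Arpc3 (0.96), of the actin-nucleating Arp2/3 complex, Rtp4 (0.96), an interferon-induced gene, Cndp2 (0.95), a cytosolic dipeptidase gene, Tnfrsf14 (0.95), a receptor of the tumour necrosis factor family, Trex1 (0.95), a cytosolic DNA exonuclease gene, and Npm1 (0.95), which encodes nucleophosmin. All 8 were called higher in all 4 comparisons of LPS with PBS or of irradiated with sham rats. Likeness over 16 libraries that share 4 groups is a description, and it was used to choose these genes.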

How the data were processed

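Gene counts were deposited by the authors as whole numbers, for each library and as a matrix of the whole study. The notes of the submitters list FastQC 0.11.9, fastp 0.23.2, HTSeq 2.0.2 and build mRatBN7.2, per the submitters' processing notes. Neither the labels nor the file headers name the aligner, the annotation release or the strand setting. Reads of overlapping genes therefore cannot be told apart and reads of near-identical RT1 genes may be split or lost. The matrix and the single-library counts were compared over 349472 cells and 0 differed. Ensembl IDs without a symbol (6518) held 1.85% to 2.28% of counts per library and were kept in the tests.

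Counts were tested with edgeR 4.0.16 in R 4.3.3 (filterByExpr, TMM factors, robust quasi-likelihood fit, 1 coefficient for each of the 4 groups, 16 libraries, 13608 genes, biological coefficient of variation 0.289), with Benjamini-Hochberg adjustment over all genes. Groups were taken from the sample labels, 4 libraries each. Two-sided tests compared LPS with PBS in irradiated and in sham rats, irradiated with sham rats under LPS and under PBS, the difference between LPS responses, and irradiation alone with LPS alone. The SE of a log2 fold change is its size divided by the square root of F. CPM values are TMM-scaled, and correlations used log2 CPM with a prior count of 2. Log2 ratios of subunits used CPM with no pseudocount and exact permutation over all 70 splits of 4 against 4 libraries. Alternatives were DESeq2 1.42.0, limma 3.58.1 (voom with sample weights), other scalings, no filter, a pseudocount of 1 CPM or other denominator for the ratios, a replicate block, symbols instead of IDs, only the groups compared and each library left out. The procedure was tested on simulated data. Every tested member had counts in all 16.

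The 10 members and all gene lists were chosen with earlier results of these data known. Besides the members, the text names the constitutive subunits, Irf1, Ciita and Rfx5, up to 4 genes of each list with the smallest p in a comparison, and the 8 genes most like the members' mean. RT1-DOb, RT1-CE1, Ifng, Slamf8, Cd3e, Cd3d, Cd3g and Cd8b were named after their values were seen. Promoter sequences and gene order come from RefSeq (GRCr8), of which no coordinate was mixed with the counts.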

Additional observations from a re-analysis of the deposited data

Results flagged for a closer look

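In 52 groups of 4 libraries that were checked, 4 held a library set far apart from its companions, by Dixon's 95% criterion for the gap to the nearest library, applied to log2 CPM of the tested members, to CPM of Tapbp and to log2 subunit ratios. Chance flags about 1 in 20 groups. Tap2 stood at 34.19 CPM in irradiated PBS library 2, above the other 3 libraries of that group (9.43 to 10.7 CPM), and RT1-DOb and RT1-CE16 were highest in the same library. On linear CPM, Tap2 in sham PBS library 3 (39.07 CPM) passed the criterion as well. Psmb10 stood at 148.5 CPM in irradiated LPS library 1, below the other 3 (171 to 174 CPM), and this library also held the lowest Psmb8 level and the highest marker sums of its group for neutrophils (2410 CPM, against 408 to 609 CPM in the other 3), neurons (110 against 8.72 to 25.5 CPM), red cells (155 against 10.2 to 25.3 CPM) and oligodendrocytes (841 against 405 to 494 CPM). The log2 ratio of Psmb9 to Psmb6 was -1.717 in sham LPS library 4, against -1.37 to -1.33 in its companions. It was -1.77 in sham PBS library 3, against -1.61 to -1.59 in its companions.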

How the results depend on the processing

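With each library left out in turn, the number of members called was 2 to 4 for LPS in sham rats, 4 to 6 for irradiation with PBS, 4 to 5 for LPS in irradiated rats, 5 to 7 for irradiation with LPS, 0 for the difference between LPS responses and 4 to 5 for irradiation alone against LPS alone. The 4 for LPS in sham rats was found without library 1 of sham LPS. Under the other alternatives the counts were 2 to 3, 6 to 7, 4 to 6, 6 to 9, 0, and 4 to 8, in the same order of comparisons, and the 8 came from library totals as the scale. That scale moved the median of all genes to 0.15 for irradiation with PBS, -0.14 for LPS in irradiated rats and 0.23 for irradiation alone against LPS alone, and the share of calls that were higher to 76.3%, 39.2% and 70%, against 53.7%, 54% and 49.5% with TMM factors. For the difference between LPS responses that share was 28% instead of 48.5%. Over all genes, this comparison had 171 calls, with 427 in DESeq2, 98 without both irradiated libraries numbered 1 and 103 to 191 with 1 library left out. Among the members' fold changes under alternatives, 891 kept sign and side of the threshold, 39 lost and 25 gained a call, and 26 changed sign. None of the 26 had been called.

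Signs turned for Tap2 under irradiation with PBS (0.0088 in limma voom, 0.0032 without both irradiated libraries numbered 1, -0.8506 to 0.5256 with 1 library left out), and with 1 library left out for Tap2 under LPS in sham rats (-0.7746 to 0.3395) and irradiation alone against LPS alone (-0.487 to 0.5965). Psmb8 under LPS in irradiated rats gave 0.0092 without a filter, 0.1678 without both libraries numbered 1 and -0.1698 to 0.1436 with 1 left out. With library totals, LPS in irradiated rats gave -0.0434 for Psmb10 and -0.0805 for Psme1. Under LPS in sham rats, leaving out 1 library gave -0.116 to 0.0061 for Psmb10 and -0.0023 to 0.1273 for Psme1. The difference between LPS responses was 0.0142 (limma voom), 0.0013 (without both numbered 1) and -0.087 to 0.0429 (1 left out) for Psme1, and -0.0206 and -0.0723 to 0.3038 for Nlrc5. The ratio of Psmb10 to Psmb7 under irradiation with PBS was 0.0268 with the mean of the other 20S subunits as denominator. With 1 library left out, it ranged from -0.0665 to 0.0138 for LPS in irradiated rats and from -0.0273 to 0.0503 for irradiation with LPS, and Psmb8 to Psmb5 ranged from -0.1974 to 0.0526 for LPS in irradiated rats. The cause was not tested.

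With the replicate number as a block, members called were 2, 6, 4, 8, 0 and 4 in the order of comparisons above. Tap2 under irradiation with PBS turned to 0.032. The calls of Tap2 under LPS in irradiated rats and of B2m for irradiation alone against LPS alone were lost (adjusted p = 0.0600 and 0.0576, edgeR), and Nlrc5 under irradiation with LPS was called (adjusted p = 0.0349). Deviations from group means correlated at -0.09 to 0.41 between same-numbered libraries, over 0.1 in 10 of 24 pairs. These 10 held all 6 pairs of libraries numbered 1, and 3 of the 4 pairs of irradiated LPS with irradiated PBS libraries. In 0 of the 6 pairs of groups were all 4 over 0.1, so the numbers were not taken to pair samples, although 13 of 16 libraries correlated best, on average, with their own number. Tapbp, with at most 14 counts in a library, was not tested.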

Other observations

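B2m also pairs with class I-like molecules that load no TAP-supplied peptides, and 4 of their genes were tested. Fcgrt, the neonatal Fc receptor gene, averaged 169 ± 19.2 CPM in irradiated rats given LPS, 326 ± 110.4 CPM in irradiated rats given PBS, 402 ± 53.7 CPM in sham rats given LPS and 533 ± 44.8 CPM in sham rats given PBS (SD, n = 4 each). It fell with irradiation by 1.25 with LPS and by 0.71 with PBS, and with LPS in irradiated rats by 0.95 (log2, adjusted p = 7.33e-05, 0.00978 and 0.000773, edgeR), all with groups apart. Hfe, the hemochromatosis gene, rose with irradiation by 0.82 ± 0.25 with LPS and 0.91 ± 0.25 with PBS (adjusted p = 0.0202 and 0.0128). Cd1d1, which presents lipids, fell with LPS in irradiated rats by 0.66 and with irradiation under LPS by 0.47 (adjusted p = 0.000488 and 0.00738). Mr1, which presents vitamin B metabolites, averaged 2.04 to 2.69 CPM in the 4 groups.

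Cytosolic peptidases, which trim or destroy proteasome products before transport, moved in both directions. Lap3, leucine aminopeptidase, known in human cells as inducible by interferon gamma, fell in all 4 comparisons. It stood at 151, 159, 161 and 135 CPM in irradiated rats given LPS, at 183, 218, 255 and 239 CPM in irradiated rats given PBS, at 184, 195, 204 and 214 CPM in sham rats given LPS and at 302, 305, 307 and 306 CPM in sham rats given PBS. The falls were 0.56 for LPS in irradiated rats, 0.61 for LPS in sham rats, 0.39 for irradiation with LPS and 0.45 for irradiation with PBS (adjusted p = 0.000125, 6.71e-05, 0.00311 and 0.00162, edgeR). Tpp2, a giant peptidase that can act after the proteasome, rose with LPS by 0.58 ± 0.10 in irradiated and 0.54 ± 0.10 in sham rats (adjusted p = 0.000295 and 0.000727). Psme3, the gamma chain of the nuclear PA28 activator, rose with LPS in sham rats by 0.98 ± 0.20 (adjusted p = 0.00101), while its fold change in irradiated rats was 0.37 ± 0.19 (adjusted p = 0.158). The difference between these 2 responses was -0.60 ± 0.27 (adjusted p = 0.388).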
